A study of Drosophila melanogaster with 8 samples.

Results

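The 10 genes described here were rho, Egfr, vn, spi, aos, pnt, sty, kek1, ab and kni, which act in EGF receptor signalling and in the placing of wing veins in Drosophila. They were chosen by name from the gene symbols of the deposited count table, as 10 of its 14300 genes. The table listed aos under its older symbol argos (FBgn0004569), so that gene was found by identifier and the other 9 by symbol. All 10 were among the 9076 genes with enough counts to be tested.

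The samples were 5 libraries of Myb mutant wing discs and 3 libraries of yw67 control wing discs, all from male larvae of the third instar. Myb mutants carried Myb MH107, a null allele on the X chromosome made by P-element mobilisation, which had been outcrossed into the laboratory line that served as the control. The deletion also removed AlkB, which had no counts in any mutant library and 7.66 ± 0.641 CPM in control libraries (SD, n = 3). The paper calls AlkB non-essential and cites rescue of the mutant phenotypes it observed, lethality included, by a ubiquitously expressed Myb cDNA. There was no rescue line among these libraries, so loss of Myb and loss of AlkB cannot be told apart in these counts. The labels disagreed on replication: a protocol text named each library a biological replicate, whereas the descriptions placed mutant library 1 in one biological replicate, mutant libraries 2 to 5 in another and all control libraries in a single one, so the p-values below measure the spread between libraries, which may be technical.

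EGF receptor signalling is a relay used repeatedly in fly development. Ligands released by one cell bind the receptor on its neighbour, the Ras and MAP kinase cascade carries the signal to the nucleus, and the pathway switches on its own inhibitors. In the wing disc the pathway promotes vein fate, and rho is switched on in the rows of cells that will form veins.

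Library totals lay between 50562199 and 65322440 counts. Myb measured 5.79 ± 1.13 CPM in mutant libraries (n = 5) and 301 ± 4.94 CPM in control libraries (n = 3), low in each of the 5 libraries labelled mutant. CPM is the read count of a gene relative to the size of its library, scaled with the TMM method of edgeR. Summed over 5 wing pouch markers, mutant libraries had 896 to 929 CPM and control libraries 784 to 950 CPM. Summed over 4 hemocyte markers, mutant libraries had 4.82 to 16.1 CPM and control libraries 153 to 213 CPM, and all 4 were called lower in Myb mutants. Control library 2 stood apart, with a median coefficient of variation over genes of 9.56% and 10.7% against control libraries 1 and 3, which differed from each other by 4.00%.

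Of the 10 genes, 5 differed between genotypes at an adjusted p under 0.05 in edgeR, 4 higher and 1 lower in Myb mutant discs. Among all genes tested 34.4% were called, 16.9% higher and 17.5% lower in mutants. For 5 of the 10 genes no mutant library fell in the range of the controls, again 4 higher and 1 lower. Over all tested genes this held for 38.9%, 19.6% higher and 19.3% lower. The genes called were spi, aos, kek1 and ab on the higher side and rho on the lower. The differences were modest, with a median absolute log2 fold change of 0.22 for the 10 genes, against 0.18 for all tested genes and 0.34 for all called genes. In these discs, which were measured in bulk, fewer cells of a type and less RNA per cell cannot be told apart.

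**Figure D1:**
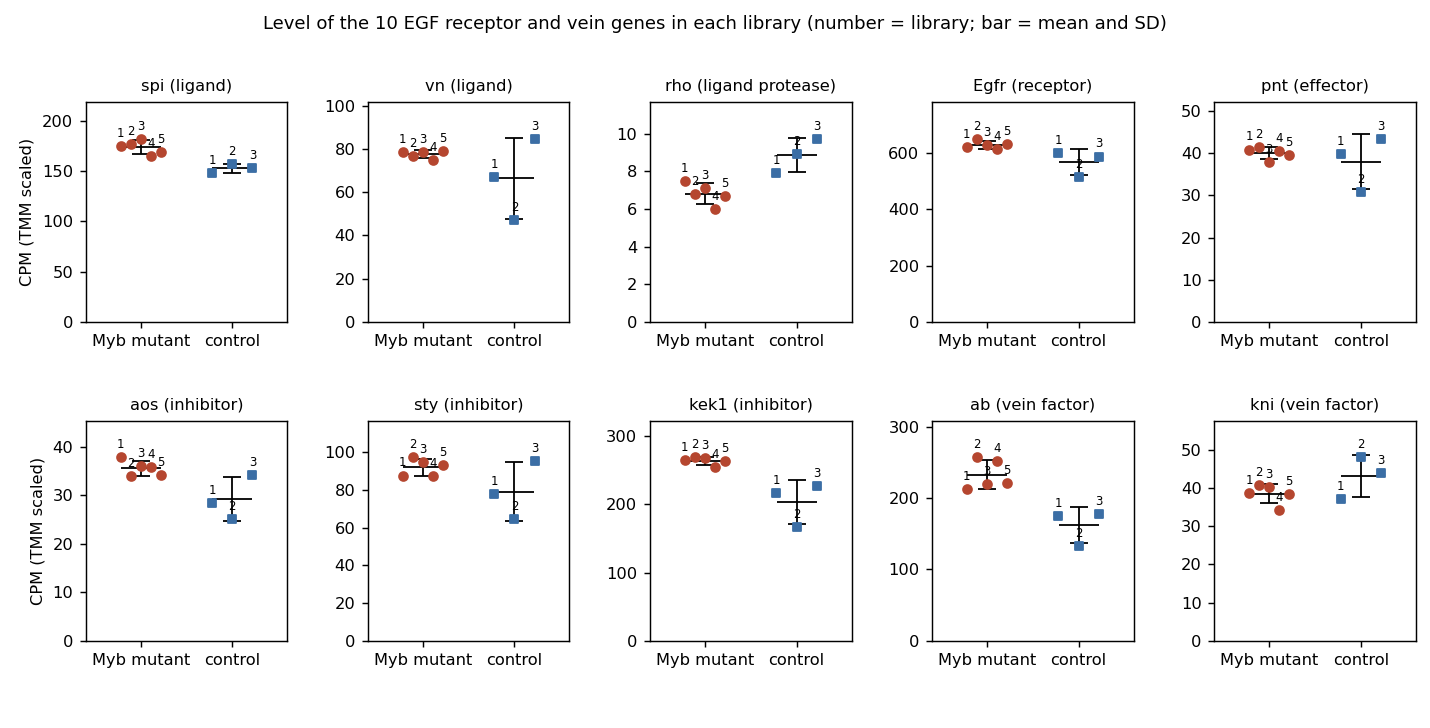
CPM (TMM scaled, axes from 0) of the 10 genes in each library, Myb mutant on the left and control on the right of each panel, with the mean and SD as bars and the library number beside each point. The mutant points of ab, kek1, spi and Egfr lie above all control points, those of rho lie below them, and control library 2 is the lowest of the 8 libraries for 7 genes.

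Spitz, encoded by spi (BDGP6 2L, 19567900 to 19577315, minus strand), is the main membrane-anchored ligand of the receptor. It measured 175, 177, 182, 165 and 169 CPM in mutant libraries 1 to 5, against 148, 157 and 153 CPM in control libraries 1 to 3. Every mutant library was above every control library. The mean was 174 ± 6.78 CPM in mutants and 153 ± 4.58 CPM in controls, a log2 fold change of 0.18 ± 0.04 (SE) with an edgeR adjusted p of 0.0125.

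The other ligand, Vein (vn, 3L, 5813338 to 5845664, minus strand), is a secreted neuregulin-like protein. It measured 78.5, 76.9, 78.8, 75.1 and 79.3 CPM in mutant libraries, against 67.1, 47.3 and 84.8 CPM in control libraries. The mutant values were close together and sat inside the range of the controls. Its log2 fold change of 0.23 had a 95% interval of -0.12 to 0.57 and did not pass the test (edgeR adjusted p = 0.277). Without control library 2 it was 0.03, and without control library 3 it was 0.44 with an adjusted p of 0.0246.

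Rhomboid, encoded by rho (3L, 1463811 to 1468944, plus strand), is the intramembrane protease that cleaves Spitz so that it can be released. It was the only 1 of the 10 called lower. Mutant libraries measured 7.51, 6.79, 7.13, 5.99 and 6.70 CPM, against 7.92, 8.94 and 9.74 CPM in control libraries. Every mutant library was below every control library, though mutant library 1 and control library 1 were near each other. The mean was 6.82 ± 0.566 CPM in mutants and 8.87 ± 0.913 CPM in controls, a log2 fold change of -0.38 ± 0.10 (SE) with an edgeR adjusted p of 0.0173. The call was lost without control library 3 (-0.31, adjusted p = 0.0592). It was also lost when the sample numbers of the titles were fitted as a block (-0.31, adjusted p = 0.140). That block fit called none of the 10 genes. The call was lost too when the libraries of each described biological replicate were added together (-0.35). In that summed fit the lone control sample is assumed to vary like the mutant ones.

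The receptor itself, Egfr (2R, 21522420 to 21559977, plus strand), measured 623, 651, 630, 613 and 630 CPM in mutant libraries, against 599, 513 and 588 CPM in control libraries. Here too the genotypes did not overlap, by a small margin above control library 1. The log2 fold change was 0.15 with a 95% interval of 0.01 to 0.29, and it missed the threshold in edgeR (adjusted p = 0.0858). DESeq2 called it, at an adjusted p of 0.0281. Without control library 2 the log2 fold change was 0.08.

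Pointed (pnt, 3R, 23290231 to 23346167, minus strand) is the ETS transcription factor that activates target genes at the end of the cascade. It measured 40.9, 41.5, 38.0, 40.6 and 39.7 CPM in mutant libraries, against 39.7, 30.8 and 43.5 CPM in control libraries. The groups overlapped. The log2 fold change was 0.08 with a 95% interval of -0.15 to 0.30 (edgeR adjusted p = 0.578), and without control library 2 it was -0.06.

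Argos, the product of aos (3L, 16470386 to 16483650, minus strand), is a secreted protein that binds Spitz and keeps it from the receptor. It measured 37.9, 34.1, 36.1, 36.0 and 34.2 CPM in mutant libraries, against 28.5, 25.1 and 34.3 CPM in control libraries. Mutant libraries 2 and 5 were slightly below control library 3. The log2 fold change was 0.28 ± 0.09 (SE), just inside the threshold (edgeR adjusted p = 0.0434). The call held in 7 of 18 alternative settings. Without control library 2 the log2 fold change was 0.18 and the adjusted p 0.118.

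Sprouty (sty, 3L, 3401153 to 3424935, minus strand) is an intracellular inhibitor of receptor signalling. It measured 87.6, 97.2, 94.8, 87.2 and 93.3 CPM in mutant libraries, against 77.6, 64.3 and 95.4 CPM in control libraries. Only control library 3 reached the mutant range. The log2 fold change of 0.22 had a 95% interval of -0.03 to 0.47 (edgeR adjusted p = 0.156). It was 0.08 without control library 2, and 0.38 without control library 3 with an adjusted p of 0.0104.

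Kekkon 1, encoded by kek1 (2L, 12817000 to 12822787, minus strand), is a transmembrane protein with leucine-rich repeats that binds the receptor and inhibits it. It measured 266, 269, 268, 255 and 264 CPM in mutant libraries, against 217, 168 and 227 CPM in control libraries. The mutant libraries were tightly grouped above all controls. The mean was 264 ± 5.73 CPM in mutants and 204 ± 32.0 CPM in controls, a log2 fold change of 0.37 ± 0.09 (SE) with an edgeR adjusted p of 0.0140. Without control library 2 the log2 fold change was 0.24 and the adjusted p 0.00191.

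Abrupt (ab, 2L, 11210678 to 11261080, plus strand) is a zinc finger transcription factor needed for the fifth longitudinal vein. It changed most among the 10 genes. Mutant libraries measured 213, 258, 221, 253 and 222 CPM, against 175, 133 and 178 CPM in control libraries. All mutant libraries were above all control libraries, with mutant libraries 2 and 4 the highest. The mean was 233 ± 20.6 CPM in mutants and 162 ± 25.5 CPM in controls, a log2 fold change of 0.52 ± 0.11 (SE) with an edgeR adjusted p of 0.00709. The annotated exons of ab overlap those of cmet by 55 bases on the opposite strand. The count table listed ab as FBgn0000011 and BDGP6 as FBgn0264442. Its exon length and overlap may therefore not be those of the model that was counted. Whether counting used strand was not stated, and cmet was lower in mutants, at 56.5 ± 3.05 CPM against 169 ± 48.7 CPM in controls.

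Knirps (kni, 3L, 20692330 to 20695378, minus strand) is a zinc finger transcription factor of the second longitudinal vein. It measured 38.7, 40.8, 40.3, 34.4 and 38.5 CPM in mutant libraries, against 37.2, 48.1 and 44.1 CPM in control libraries. Control library 1 fell within the mutant range. The log2 fold change of -0.16 had a 95% interval of -0.36 to 0.04 (edgeR adjusted p = 0.184), and without control library 1 it was -0.26 with an adjusted p of 0.0396. It was -0.08 with an adjusted p of 0.496 without control library 2.

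**Figure D2:**
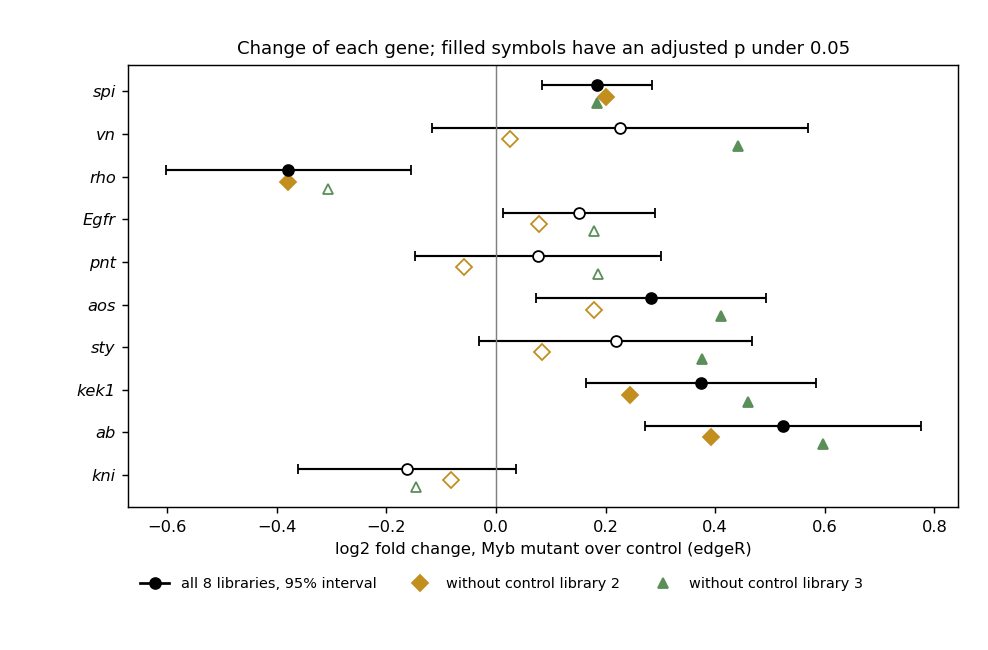
log2 fold change of Myb mutant over control for each gene in edgeR, with its 95% interval over all 8 libraries (circles) and the estimate without control library 2 (diamonds) or 3 (triangles). Filled symbols have an adjusted p under 0.05. Without control library 2 the estimates of vn, Egfr, aos, sty, kek1, ab and kni move towards 0 and that of pnt passes it, while those of spi (0.20) and rho (-0.38) stay near their values over all libraries.

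The 7 genes lowest in control library 2 were Egfr, vn, aos, pnt, sty, kek1 and ab. That library held 62.3% of the mean of control libraries 1 and 3 for vn, 74.1% for pnt, 74.4% for sty, 75.1% for ab, 75.3% for kek1, 80.2% for aos and 86.5% for Egfr. The other 3 genes did not share this: rho stood at 101%, spi at 105% and kni at 118%. Among control libraries the median coefficient of variation of the 10 genes was 15.7%, and 9.21% between control libraries 1 and 3, whereas among mutant libraries it was 4.16%. With control library 2 left out, spi, kek1 and ab were still called higher and rho lower. What set that library apart was not tested.

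**Figure D3:**
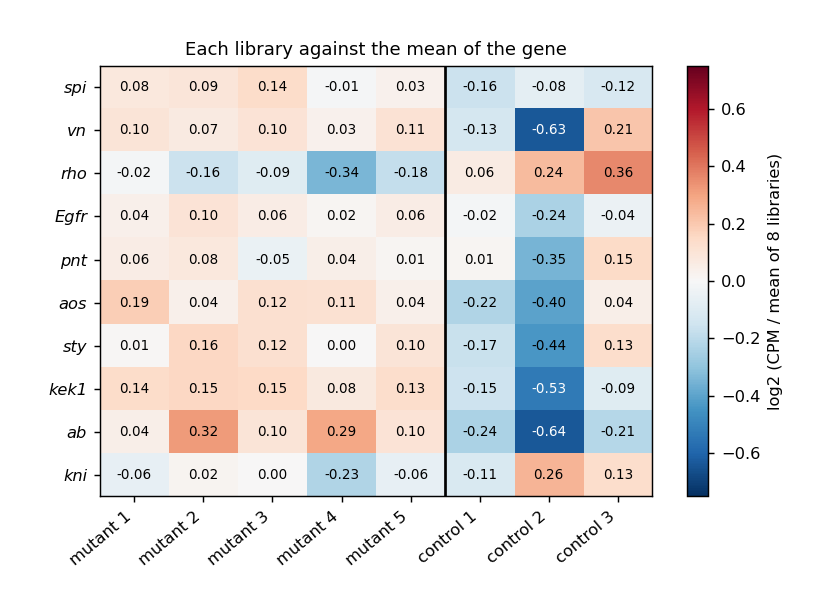
log2 ratio of each library to the mean of the 8 libraries for each gene, with mutant libraries on the left of the black line and control libraries on the right. Control library 2 reaches -0.63 for vn and -0.64 for ab, while rho runs the other way, at -0.34 in mutant library 4 and 0.36 in control library 3.

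Ratios of genes within a library do not depend on library scaling. The ratio of rho to spi, protease to substrate, was 0.0392 ± 0.00237 in mutants and 0.0580 ± 0.00525 in controls, with no overlap. That lack of overlap follows from rho being lower and spi higher in every mutant library, and adds nothing to them. The ratio of kek1 to Egfr, inhibitor to receptor, was 0.420 ± 0.00595 in mutants and 0.359 ± 0.0305 in controls, again with no overlap. The ratio of ab to kni was 6.08 ± 0.785 in mutants and 3.84 ± 0.994 in controls, also without overlap. For aos, sty and pnt relative to Egfr, and for vn relative to spi, the genotypes overlapped. These ratios are descriptions and were not tested.

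Divided by the merged exon length of the BDGP6 annotation, spi and Egfr were the most abundant transcripts of the set and rho the scarcest. Per kilobase, spi had 95.6 ± 3.73 CPM in mutants and 84.1 ± 2.52 in controls, and Egfr had 90.6 ± 2.04 in mutants and 81.6 ± 6.71 in controls. The libraries of spi and Egfr overlapped in each genotype. Next came kek1, at 45.7 ± 0.990 CPM per kilobase in mutants and 35.3 ± 5.54 in controls, and ab, at 32.0 ± 2.83 in mutants and 22.3 ± 3.50 in controls. kni, sty, vn and aos lay between 12.6 and 17.4 in mutants and between 10.4 and 19.5 in controls, and neighbours among them overlapped in control libraries. pnt had 6.56 ± 0.225 in mutants and 6.21 ± 1.06 in controls, and rho had 2.27 ± 0.189 in mutants and 2.96 ± 0.304 in controls.

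Beyond the 10, lists of related genes held 81 further genes, of which 74 were tested. In edgeR 21 of the 74 were called (28.4%), 19 higher (25.7%) and 2 lower (2.7%) in Myb mutants. Over all genes tested the shares were 34.4% called, 16.9% higher and 17.5% lower, so the share called was below that of all genes. Their median log2 fold change was 0.13, against 0.01 for all tested genes. Without control library 2, 19 genes of these lists were called higher and 6 lower. These lists were drawn up with earlier results of the same libraries known, and their counts are descriptions.

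Among 7 other genes of ligands and their processing, 2 were called, both higher. Among the called genes of these lists the largest difference was in rho-5, a rhomboid relative that lacks protease activity and in Drosophila lowers the secretion of receptor ligands. It had 7.66 ± 0.661 CPM in mutant libraries (n = 5), against 1.63, 1.21 and 1.62 CPM in control libraries. Each mutant library was far above each control library, a log2 fold change of 2.37 ± 0.14 (SE) with an edgeR adjusted p of 4.59e-06. Its annotated exons overlap those of CG33303 on the same strand. rho-4, another member of the rhomboid family, was called higher with a log2 fold change of 0.16.

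Of 17 other genes of receptor adaptors and the Ras-MAPK cascade, 4 were called. The scaffold gene ksr (0.17) and the adaptor gene dos (0.14) were higher on the log2 scale, and 14-3-3zeta (-0.25) and 14-3-3epsilon (-0.17) were lower. The last pair encode adaptor proteins of abundant transcripts, with 739 ± 22.3 CPM in mutants and 877 ± 63.4 CPM in controls for 14-3-3zeta.

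Negative regulators were called in 4 of 13 other cases, each of them higher. aop, the gene of the ETS repressor Yan, had a log2 fold change of 0.28. Sulf1, an extracellular sulfatase, had 0.27. Mkp3, a MAP kinase phosphatase, had 0.16, and Spred, a relative of Sprouty, had 0.15. With aos and kek1, 6 of the 16 tested negative regulators were called, all of them higher. Among all tested genes 34.4% were called in either direction and 16.9% higher. The calls of aos and Mkp3 were each lost in 7 of the 8 fits that left out 1 library, and those of aop and Spred in 6. Only kek1 and Sulf1 kept theirs in each of these fits.

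Of 21 other vein and intervein genes, 4 were called, all higher. They were salm (log2 fold change 0.26) and salr (0.23), the paired spalt genes of the central wing, dpp (0.24) and px (0.17). dpp encodes a BMP ligand of the disc, and loss of px gives extra veins. Among 7 crossvein genes, cv-2, which encodes a BMP-binding protein, had 59.0 ± 2.63 CPM in mutants and 40.1 ± 1.40 CPM in controls, a log2 fold change of 0.56 ± 0.05 (SE) with an edgeR adjusted p of 4.37e-05. sog (0.37), a secreted BMP antagonist, and cv-c (0.36), a RhoGAP, were called higher too.

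Relatives of the members moved upward where called. kek5 had a log2 fold change of 0.35 and kek2 had 0.65, kek2 being low at 1.34 CPM in mutants and 0.854 CPM in controls. In the ETS family Ets21C had 4.03 ± 0.660 CPM in mutants and 1.81 ± 0.682 CPM in controls, a log2 fold change of 1.15. Ets96B had 0.846 CPM in mutants and 0.401 CPM in controls, a log2 fold change of 1.07.

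The calls of rho-5, 14-3-3zeta, Sulf1, dpp, salr, cv-2, sog, kek5, Ets21C and Ets96B held whichever single library was left out. Those of rho-4, ksr, dos, 14-3-3epsilon, aop, Mkp3, Spred, salm, px, cv-c and kek2 were lost in at least 1 of these fits. Several sizes rested on control library 2: without it the log2 fold change was 0.16 for aop, 0.16 for salm, 0.09 for Spred, 0.22 for cv-c and 0.25 for sog. The annotated exons of aop, Ets21C, ksr and Ets96B overlap genes on the opposite strand, and those of Sulf1 overlap a gene on each strand, so their counts may include reads of these neighbours.

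**Figure D4:**
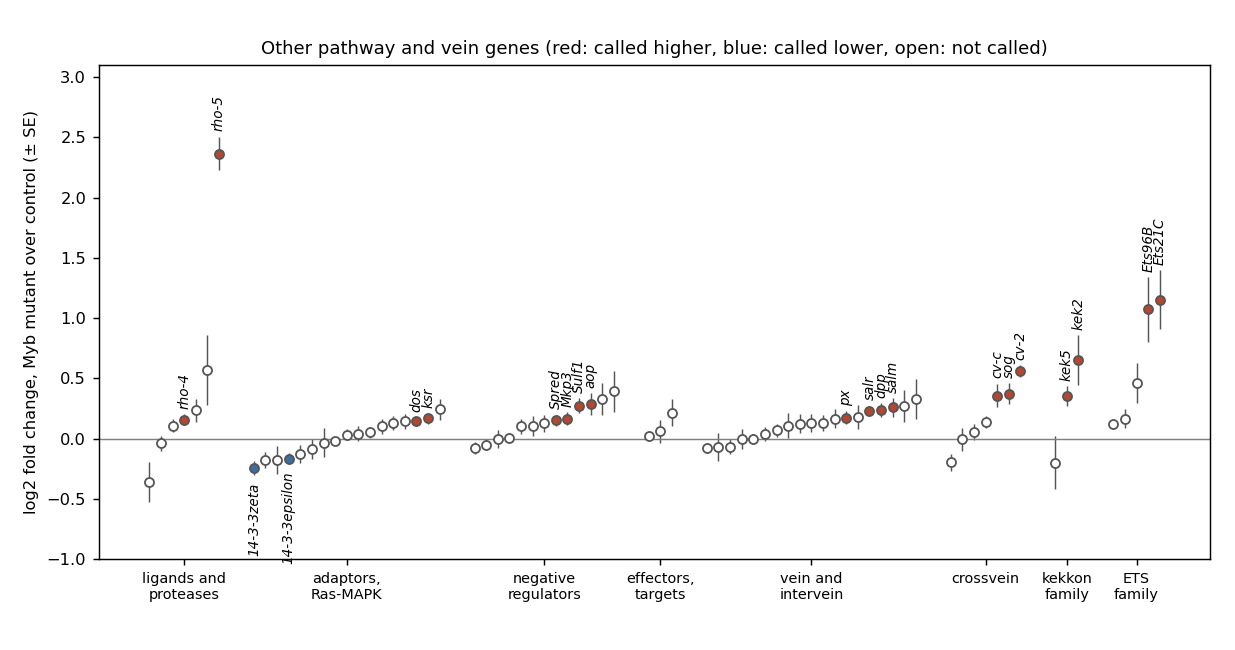
log2 fold change of Myb mutant over control, with SE bars, for the 74 other tested genes of the pathway, vein and family lists, sorted within each list. Red points were called higher (19 genes), blue points lower (2 genes) and open points were not called; rho-5 at 2.37 lies farthest from 0.

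Genes of the ecdysone response, which follow the age of the larva, did not all sit at the same level in both genotypes. Of 17 tested, 4 were called, 3 higher and 1 lower, where 34.4% of all tested genes were called. ftz-f1 had 32.8 ± 3.41 CPM in mutants and 12.1 ± 4.65 CPM in controls. EcR had 203 ± 14.7 CPM in mutants and 140 ± 32.4 CPM in controls. Control library 2 was the lowest control for both, at 6.77 CPM for ftz-f1 and 103 CPM for EcR. It had the highest sum over the list, 6022 CPM, of which ImpE2 was 4389 CPM. The other controls had sums of 3875 and 4241 CPM, and mutant libraries 3252 to 4947 CPM. Eip93F was higher at a very low level, 0.241 ± 0.111 CPM in mutants and 0.0475 ± 0.0162 CPM in controls. ImpL2 was lower, at 73.4 ± 5.51 CPM in mutants and 91.7 ± 6.18 CPM in controls.

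Markers of other cell types moved as well. Of 4 tracheal markers, btl (log2 fold change -0.81) and trh (-0.34) were lower and Gasp (0.20) higher, and their summed level was 446 to 491 CPM in mutants and 471 to 567 CPM in controls. Of 3 eye disc markers tested, so (-0.39) and eya (-0.53) were lower and ey (1.43) was higher. The sum over that list was 23.0 to 28.5 CPM in mutants and 32.1 to 38.5 CPM in controls. Of 4 neuron and glia markers tested, moody (1.01) and nrv2 (0.15) were higher, with a sum of 207 to 218 CPM in mutants and 167 to 196 CPM in controls. Most of that sum was nrv2, at a mean of 169 CPM in mutants and 152 CPM in controls. The neuronal markers elav and syt were not called. Of 4 peripodial and leg markers, Ubx (-0.52) was lower and odd (0.21) higher. Their sum was 339 to 382 CPM in mutants and 254 to 437 CPM in controls. The summed ranges of the tracheal list and of the peripodial and leg list overlapped between genotypes. Those of the remaining lists overlapped too: notum markers had 206 to 222 CPM in mutants and 198 to 217 CPM in controls, and myoblast markers had 364 to 392 CPM in mutants and 353 to 380 CPM in controls. Fat body and salivary gland markers varied widely within each genotype, at 351 to 3607 CPM in mutants and 62.1 to 3535 CPM in controls for fat body, and at 0.630 to 193 CPM in mutants and 4.07 to 17.6 CPM in controls for salivary gland. The part of these markers, of the hemocyte markers and of the ecdysone genes in the values of the 10 genes was not tested.

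The genes whose log2 CPM followed each member most closely over the 8 libraries are given as a description, with Pearson's r. For rho they were Fs (r = 0.983), CG14482 (0.971) and Glut1 (0.970). For kek1 they were stau (0.995), CG8557 (0.994) and lbk (0.993), and for ab they were SP1173 (0.995), Hmr (0.989) and CG14435 (0.988). For spi they included dos (0.980), itself on the list of adaptors. The 8 libraries share the difference between genotypes and the position of control library 2, and both enter these values.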

How the data were processed

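Polyadenylated RNA of 8 wing disc samples was sequenced. Per the labels, reads were trimmed with Trimmomatic (version 0.22) and Bowtie2 (version 2.1.0) was used. The study mapped reads to exons of a FlyBase release and summed counts per gene. The deposited table held raw read counts; columns of the authors' own DESeq2 comparison were not used. A row of mitochondrial reads, 0.574% to 1.34% of counts, was left out.

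The fit used R version 4.3.3 and edgeR version 4.0.16, with filterByExpr, TMM scaling and a quasi-likelihood test of genotype over all 8 libraries. A gene was called at an adjusted p (Benjamini-Hochberg, over 9076 genes) under 0.05. The SE was derived from the F statistic, as the size of the log2 fold change over the root of F. Alternatives used DESeq2 version 1.42.0, limma version 3.58.1, other scaling and filters, leaving out each library, summing by described biological replicate, and a replicate block. The scripts were tested on simulated data. Positions and exon lengths are those of BDGP6 (Ensembl release 115), not of the authors' build. The members and all gene lists were chosen with earlier results of these data known. All members were named, and from each pathway, vein or family list up to 6 called genes with the largest absolute log2 fold change. Marker and stage lists were given by counts and summed levels, with at most 4 called genes named.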

Additional observations from a re-analysis of the deposited data

Results flagged for a closer look

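Among the 5 mutant libraries, 1 library stood apart from the other 4 for 3 of 31 genes examined, each outside the set of 10, where chance alone sets apart about 1 in 20. For aop mutant library 2 was the highest, at 221 CPM. For Sulf1 mutant library 4 was the lowest, at 83.3 CPM, and for kek5 the same library was the lowest, at 84.8 CPM. The 3 control libraries were too few for this comparison.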

How the results depend on the processing

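The sample numbers in the titles were not taken as pairs. Deviations of same-numbered libraries correlated at 0.32, -0.11 and 0.01, and those of differently numbered libraries ranged from -0.43 to 0.45. With so few libraries these values cannot decide whether the numbers pair them. With the replicate block, members called higher numbered 0 and lower 0, related genes called numbered 3 (3 higher, 0 lower), and over all genes 750 were called higher and 647 lower. With libraries summed by described biological replicate, 0 members were called lower, 1 related gene was called lower, and over all genes 744 were higher and 766 lower. Leaving out 1 library at a time gave 3 to 6 members higher, 0 to 2 lower, 13 to 25 related genes called, 11 to 22 higher and 1 to 6 lower. Without control library 2 and mutant library 1 together, chosen after seeing the data, 4 related genes were called lower. The log2 fold change of pnt ranged over -0.059 to 0.19 with 1 library left out, below 0 only without control library 2, and was -0.062 in that joint setting. Causes were not tested. For single member genes, 157 of the alternative values kept direction and call, 17 lost the call, 4 gained it and 2 changed sign. For the 21 other genes, 287 kept it and 90 lost it. Poisson counting error alone would give rho a coefficient of variation of 5.00% in mutants and 4.51% in controls, against 8.30% and 10.3% observed, and the mean count per library was 66.8 for kek2 and 38.6 for Ets96B. The disagreement over biological replicates limits all p-values.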
